A study of Mus musculus with 21 samples.

Results

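The lysosomal enzymes and membrane proteins described here are 35 genes picked by symbol: 11 cathepsins, 2 other proteases, 7 glycosidases, 6 genes of lipid handling, 7 membrane proteins, progranulin (Grn) and the transcription factor gene Tfeb. All 35 of them were found among the 45664 gene rows of the count table, and all 35 passed the filter on low counts that left 22294 genes for testing. Their counts summed over all libraries ran from 3362 for Ctsk to 1003643 for Psap. Bulk messenger RNA was sequenced from the ventral pons, a block of brainstem that holds the facial nucleus, of C57BL/6 mice in which the right facial nerve had been cut. The lesion pons of the cut side and the contralateral pons of the uncut side were each taken 7, 14 and 30 days after axotomy, from mice that were operated at 8 weeks and were thus 9, 10 and 12 weeks old. The unoperated pons (day 0) came from the left side of mice aged 8 weeks. Each of these 7 groups had 3 libraries. All mice, the unoperated ones included, were of the line CX3CR1GFP/wt, in which GFP takes the place of Cx3cr1, a receptor gene of microglia, on 1 allele. Lesion and body side cannot be told apart, since all nerves were cut on the right, and neither can day and age. Per the count headers, the libraries of days 0 and 7 carry lane number 1, those of day 14 lane number 2 and those of day 30 lane number 3.

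Lysosomes are acidic vesicles in which hydrolases break down proteins, glycans and lipids taken up by endocytosis and phagocytosis or delivered by autophagy. Their limiting membrane carries heavily glycosylated proteins of the LAMP family, channels and transporters, and TFEB together with related factors can activate many of their genes through E-box elements. Neurons and glia all need lysosomes, while some members, such as Ctss, Cd68 and Laptm5, are known mainly from microglia and other macrophages, which surround facial motor neurons after axotomy.

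Library totals ran from 35874913 to 41448945 counts at day 0 and from 17358868 to 29827291 counts in the operated groups. Neuronal, oligodendrocyte and motor neuron markers were present in every library. Among markers of the cell types that the block can hold, summed levels of 9 homeostatic microglia genes were 212 to 251 CPM (counts scaled to the library total) in lesion and 153 to 171 CPM in contralateral libraries at day 7. At day 14 they were 224 to 257 CPM in lesion and 150.0 to 175 CPM in contralateral libraries, and at day 30 211 to 222 CPM in lesion and 161 to 183 CPM in contralateral libraries, against 174 to 184 CPM in the unoperated pons. The summed level of 7 pan-myeloid genes also did not overlap between the sides on any day, and was 185 to 238 CPM in lesion and 127 to 139 CPM in contralateral libraries at day 14. Of the 9 homeostatic genes 5, 4 and 3 rose at days 7, 14 and 30, of the 7 pan-myeloid genes 7, 7 and 6, and every gene of both lists had counts in every group. Blood myeloid and border macrophage genes summed to between 10.3 and 22.4 CPM over all libraries, and 0 of 8 passed the test between the sides on any day. At day 30 the T cell list summed to 3.89 to 6.73 CPM in lesion and 2.76 to 3.38 CPM in contralateral libraries, where 2 of its 7 genes had no count, and 3 of the 7 rose. Of 5 cholinergic motor neuron genes 0, 3 and 1 fell on the lesion side at days 7, 14 and 30, where the median log2 difference of the list was -0.66, -1.04 and -0.83. Prph, an intermediate filament gene of the same list, rose at day 14. The list summed to 221 to 260.0 CPM in lesion and 291 to 339 CPM in contralateral libraries at day 14, and all 5 genes had counts in every group. The part of these markers in the members' differences between the sides was not tested. Lesion replicate 3 of day 7 stood apart in choroid plexus markers, with 4350 CPM of Ttr. The count columns of day 30 carry side letters opposite to the samples' sides; they were assigned by the sample descriptions, the deposited log2 matrix matched all 21 samples so assigned, and all directions of day 30 rest on this.

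Between the lesion and the contralateral pons, 10 of the 35 members rose at day 7, 11 at day 14 and 8 at day 30, and 0 fell on any day. In whole tissue, more cells of a type and more RNA per cell cannot be told apart. A change was called at an adjusted p under 0.05 in edgeR's quasi-likelihood test with Benjamini-Hochberg adjustment over all genes tested. The 10 members of day 7 are 28.6% of the list, against 1.65% of all tested genes called, 1.56% higher and 0.0942% lower. The 11 members of day 14 are 31.4%, against 3.88% of all genes called, 2.58% higher and 1.31% lower, and the 8 of day 30 are 22.9%, against 1.16% called, 1.04% higher and 0.121% lower. These shares are not a test of the list, since the members were chosen with earlier results of these data known. The tested genes also reach down to a summed count of 30, whereas the lowest member had 3362. No member fell at an unadjusted p under 0.05 either, or in DESeq2 or limma-voom, on any of the 3 days. The median log2 difference of the members was 0.08, 0.13 and 0.10 at days 7, 14 and 30, against -0.01, 0.00 and 0.00 over all tested genes. The members that rose on all 3 days were 7: the cathepsin genes Ctsb, Ctsd, Ctsh, Ctss and Ctsz, progranulin and Laptm5. Cd63 rose on days 7 and 14, Cd68 on days 14 and 30, and 4 members on 1 day, while 22 were called on no day.

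**Figure D1:**
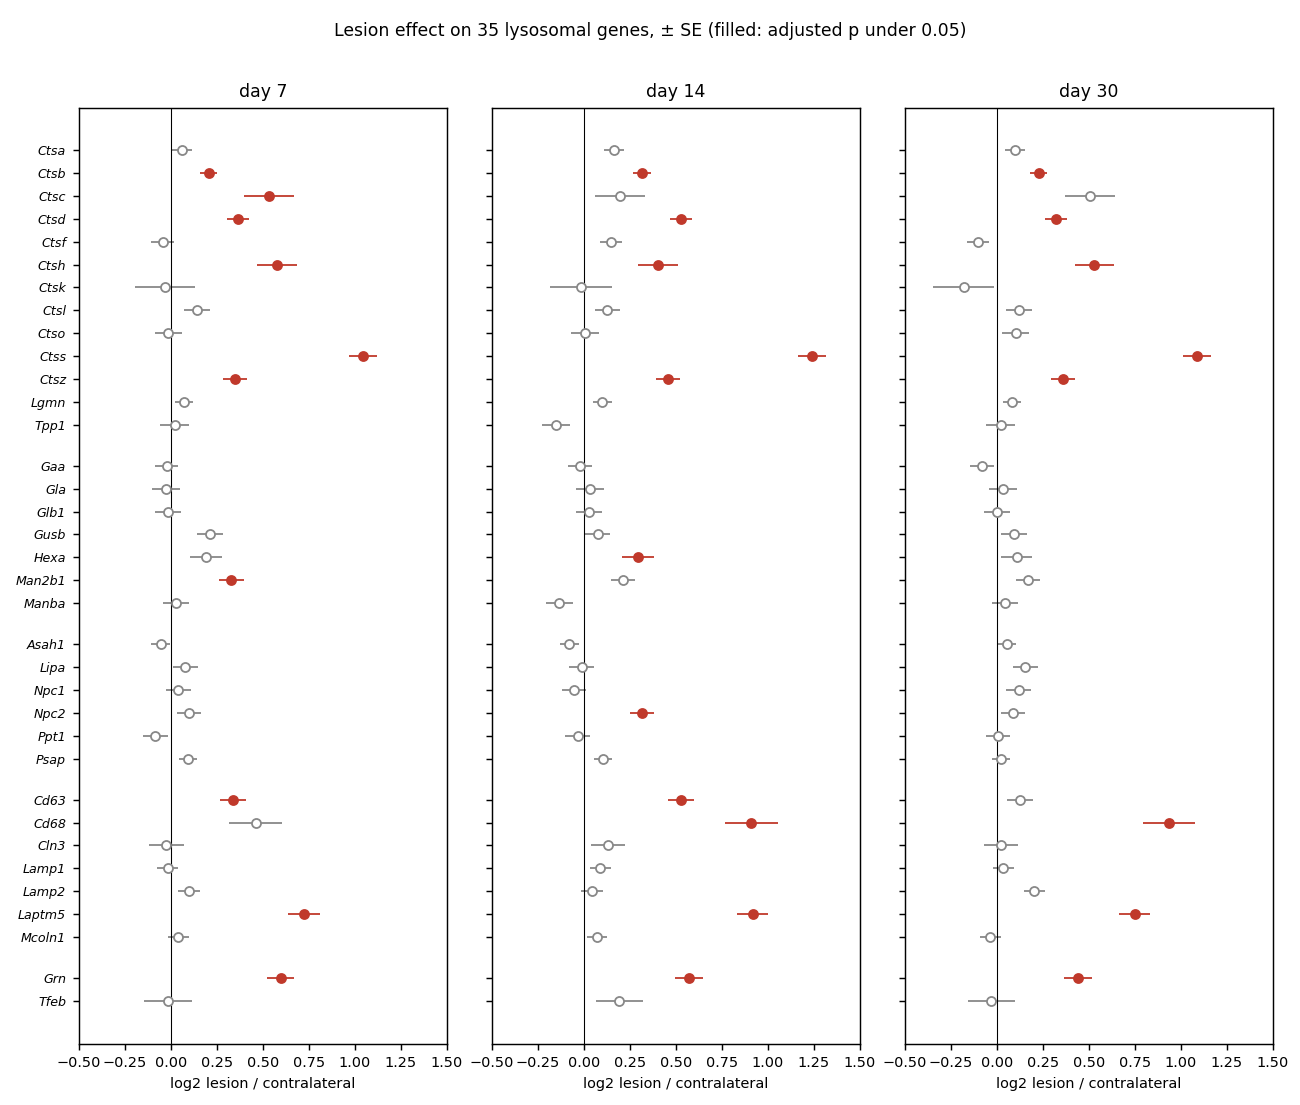
Log2 difference between lesion and contralateral pons at days 7, 14 and 30 for the 35 members, ordered by role, with 1 standard error; filled red points have an adjusted p under 0.05. Ctss lies farthest to the right on each day, at 1.04, 1.24 and 1.09, and most enzymes and membrane proteins lie near 0.

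The proteases moved unevenly. Of the 13 cathepsin and other protease genes, 6, 5 and 5 rose at days 7, 14 and 30. Ctss encodes cathepsin S, a cysteine protease of macrophages and other antigen-presenting cells that stays active at neutral pH. It lies on the forward strand of chromosome 3 at 95526786-95556403 (GRCm38), as does Ctsk at 95499256-95509362. Ctss stood at 169, 173 and 152 CPM in the 3 lesion libraries of day 7, against 85.0, 81.3 and 72.8 CPM in the contralateral ones. Lesion values at day 14 were 196, 169 and 177 CPM, against 68.7, 84.2 and 76.6 CPM contralaterally, and those of day 30 were 183, 196 and 215 CPM in lesion libraries, against 94.4, 96.5 and 88.7 CPM in contralateral libraries. Every lesion library was thus far above every contralateral library, and the unoperated libraries had 82.3, 79.3 and 79.3 CPM. The contralateral libraries of day 30 were all above the unoperated ones, and those of days 7 and 14 lay on both sides of them. The fold differences of 2.06, 2.36 and 2.12 were the largest of any member on each day (log2, in order of day, 1.04 ± 0.08, adjusted p = 9.62e-10; 1.24 ± 0.08, 2.99e-11; 1.09 ± 0.08, 1.61e-09). Ctsk, which codes for a collagen-degrading cathepsin of osteoclasts, had 5.31 ± 1.01 CPM in lesion and 5.34 ± 1.01 CPM in contralateral libraries at day 14 (SD, n = 3 each), with a log2 difference of -0.01 ± 0.17 and an adjusted p of 0.981.

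The promoter of Ctss, the member with the largest difference, is shown with those of Ctsd, which rose, and of Lamp1, which passed no test, because they differ in the E-box letters that TFEB and related factors are known to bind. The capitals mark CACGTG in the promoters of Ctsd and Lamp1, with the longer TCACGTGA where it is present, and in Ctss the letters ACTTCCTC, the reverse complement of GAGGAAGT, a sequence bound by ETS factors such as PU.1. Each runs from 250 bases before to 50 bases after the annotated start, 5′ to 3′ on the gene's strand (RefSeq, GRCm38.p6): Ctss chr3:95526536-95526835 forward, Ctsd chr7:142387778-142388077 reverse, Lamp1 chr8:13158911-13159210 forward.
Ctss: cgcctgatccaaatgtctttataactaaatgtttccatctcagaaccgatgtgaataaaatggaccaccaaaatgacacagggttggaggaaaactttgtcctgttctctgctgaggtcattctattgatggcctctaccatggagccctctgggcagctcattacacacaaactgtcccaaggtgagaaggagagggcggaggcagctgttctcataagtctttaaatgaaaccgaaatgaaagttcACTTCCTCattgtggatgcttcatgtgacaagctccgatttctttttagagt
Ctsd: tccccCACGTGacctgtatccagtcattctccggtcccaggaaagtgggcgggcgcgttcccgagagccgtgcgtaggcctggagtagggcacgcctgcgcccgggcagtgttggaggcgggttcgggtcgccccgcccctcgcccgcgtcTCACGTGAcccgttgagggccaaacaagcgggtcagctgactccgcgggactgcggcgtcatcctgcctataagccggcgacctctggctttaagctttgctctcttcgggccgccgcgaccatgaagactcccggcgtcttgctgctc
Lamp1: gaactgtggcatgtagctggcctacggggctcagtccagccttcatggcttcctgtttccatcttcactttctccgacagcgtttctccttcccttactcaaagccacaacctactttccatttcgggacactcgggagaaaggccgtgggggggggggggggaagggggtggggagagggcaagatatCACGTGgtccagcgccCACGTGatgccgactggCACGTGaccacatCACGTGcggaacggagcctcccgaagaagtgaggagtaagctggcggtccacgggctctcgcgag
Both strands were searched, and TCACGTGA contains CACGTG. Promoters were matched for 31 of the 35 members, 37 promoters in all, and 11 of the 37 (29.7%) held CACGTG, against 2349 of 32851 promoters of the same length (7.15%). TCACGTGA was in 5 of the 37 (13.5%), against 0.974% of all promoters. Lamp1 had 4 copies of CACGTG, whose first bases lay at -61, -45, -28 and -15 from the start, and Ctsd had 2, at -245 and -98. Of the 7 matched members called on at least 2 days, 1 (Ctsd) held CACGTG, of the 4 called on 1 day 0 did, and of the 20 called on no day 10 did (Ctsa, Ctsf, Ctsl, Lamp1, Gaa, Glb1, Gla, Lgmn, Cln3 and Mcoln1). These are counts of genes, and the 20 genes had 26 promoters. Counted by promoter, 10 of these 26 (38.5%) held it, against 1 of 7 (14.3%) for members called on at least 2 days. GAGGAAGT, searched after the data were seen, was in 4 members (Ctss, Ctsc, Gusb and Gla), which is 4 of the 37 promoters (10.8%), and in 3.2% of all promoters. These matches describe the letters of the windows only.

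Ctsd and Ctsb are the most abundant cathepsin genes in this tissue. Per kilobase of exon, Ctsd had 255 ± 7.5 CPM and Ctsb 186 ± 4.64 CPM in the unoperated pons (SD, n = 3), behind only Psap (715 ± 11.2) and Lamp1 (291 ± 13) among the members. Ctss ranked 8 of 35 with 59.1 ± 1.29 CPM per kilobase, and Ctsc last with 2.1 ± 0.0463. Ctsd encodes cathepsin D, the main aspartic protease of the lysosome. It had 828, 885 and 819 CPM in lesion libraries at day 7, against 680.2, 676 and 611 CPM in contralateral libraries. At day 14 the lesion values were 821, 966 and 834 CPM, against 599, 595 and 623 CPM in contralateral libraries, and at day 30 834, 804 and 815 CPM in lesion libraries, against 678, 648 and 639 CPM in contralateral libraries. The sides did not overlap on any day, and the rise was 0.36 ± 0.06, 0.53 ± 0.06 and 0.32 ± 0.06 on the log2 scale (adjusted p = 0.000362, 1.02e-06 and 0.00267). Ctsd shares exon bases on its strand with the predicted gene Gm49369, so its counts may include or lack shared reads.

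Ctsb encodes cathepsin B, a cysteine protease with both endo- and exopeptidase activity. Lesion libraries of day 7 held 1051, 1069 and 1019 CPM, against 939, 889 and 896 CPM in contralateral libraries. Values of day 14 were 1060.5, 1125 and 1100.4 CPM in lesion and 877, 877 and 885 CPM in contralateral libraries, and those of day 30 were 971, 1001 and 1032 CPM in lesion and 837, 875 and 854 CPM in contralateral libraries. The groups were separate on each day, although the rise was the smallest among the 7 members called on all days (log2 0.20 ± 0.05, adjusted p = 0.0186; 0.32 ± 0.05, 9.44e-05; 0.23 ± 0.05, 0.00997). The adjusted p at day 7 became 0.089 without day 7 lesion replicate 1, 0.0952 without day 7 lesion replicate 2, 0.121 without day 7 contralateral replicate 2 and 0.0967 without day 7 contralateral replicate 3. With no filter beyond 1 count it was 0.0522, and with only the groups compared 0.0696. At day 30 it became 0.0923 without day 30 lesion replicate 3 and 0.0734 without day 30 contralateral replicate 1. Exons of Ctsb overlap Fdft1 on the other strand, and whether the counting used strand is not given in the sources used here.

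Ctsz and Ctsh encode exopeptidases of the papain family, a carboxypeptidase and an aminopeptidase. Ctsz had 64.8, 71.0 and 62.7 CPM in lesion and 50.0, 53.5 and 52.4 CPM in contralateral libraries at day 7. At day 14 it had 64.2, 66.6 and 62.3 CPM in lesion libraries, against 44.9, 45.5 and 50.0 CPM in contralateral libraries, and at day 30 64.4, 64.5 and 63.9 CPM in lesion libraries, against 50.4, 49.4 and 50.5 CPM in contralateral libraries. The lesion values stayed between 62.3 and 71.0 CPM on all days, above all contralateral ones (log2 0.35 ± 0.07, adjusted p = 0.00184; 0.46 ± 0.07, 3.64e-05; 0.36 ± 0.07, 0.0021). Ctsh had 26.0, 28.8 and 27.1 CPM in lesion libraries at day 7, against 16.6, 20.4 and 17.9 CPM in contralateral ones. Its values were 21.6, 22.4 and 23.4 CPM in lesion libraries, against 12.9, 18.7 and 19.4 CPM in contralateral libraries at day 14 and 29.6, 25.3 and 28.2 CPM in lesion libraries, against 18.0, 18.5 and 21.1 CPM in contralateral libraries at day 30. Contralateral replicate 1 of day 14 was the lowest of all 21 libraries for Ctsh, and the gap between the sides was narrowest on that day (log2 0.58 ± 0.11, adjusted p = 0.00176; 0.40 ± 0.11, 0.0336; 0.53 ± 0.11, 0.00598). The day 14 adjusted p became 0.11 without day 14 lesion replicate 2, 0.0936 without day 14 lesion replicate 3 and 0.178 without day 14 contralateral replicate 1, where the log2 difference was 0.25. With only the groups compared it was 0.177. The day 30 one became 0.0509 without day 30 lesion replicate 1, 0.0591 without day 30 contralateral replicate 1 and 0.0537 without day 30 contralateral replicate 2.

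Ctsc encodes dipeptidyl peptidase 1, which activates serine proteases of immune cells. It rose at day 7, with 16.9 ± 2.62 CPM in lesion and 11.7 ± 1.01 CPM in contralateral libraries (SD, n = 3 each; log2 0.53 ± 0.14, adjusted p = 0.0441). The highest of the 3 lesion values, 19.5 CPM, came from the library with high choroid plexus markers, without which the difference was 0.41 and the adjusted p 0.315. The adjusted p also became 0.142 without day 7 lesion replicate 2, and 0.193, 0.0639 and 0.221 without contralateral replicates 1, 2 and 3. With replicate number as a block it was 0.0564, in limma-voom 0.0572 and in limma on the deposited log2 matrix 0.0541. At day 30 Ctsc had 18.2 ± 1.21 CPM in lesion and 12.9 ± 2.56 CPM in contralateral libraries, at a log2 difference of 0.51 ± 0.13 and an adjusted p of 0.0746 (0.0441 without contralateral replicate 2). That adjusted p was 0.0346 in DESeq2, 0.00793 with no filter beyond 1 count and 0.031 with only the groups compared. Of 14 alternatives these 4 called Ctsc at day 30 and the other 10 did not. The other protease genes Ctsa, Ctsf, Ctsl, Ctso, Lgmn and Tpp1 passed no test between the sides, with log2 differences between -0.15 (Tpp1, day 14) and 0.16 (Ctsa, day 14).

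**Figure D2:**
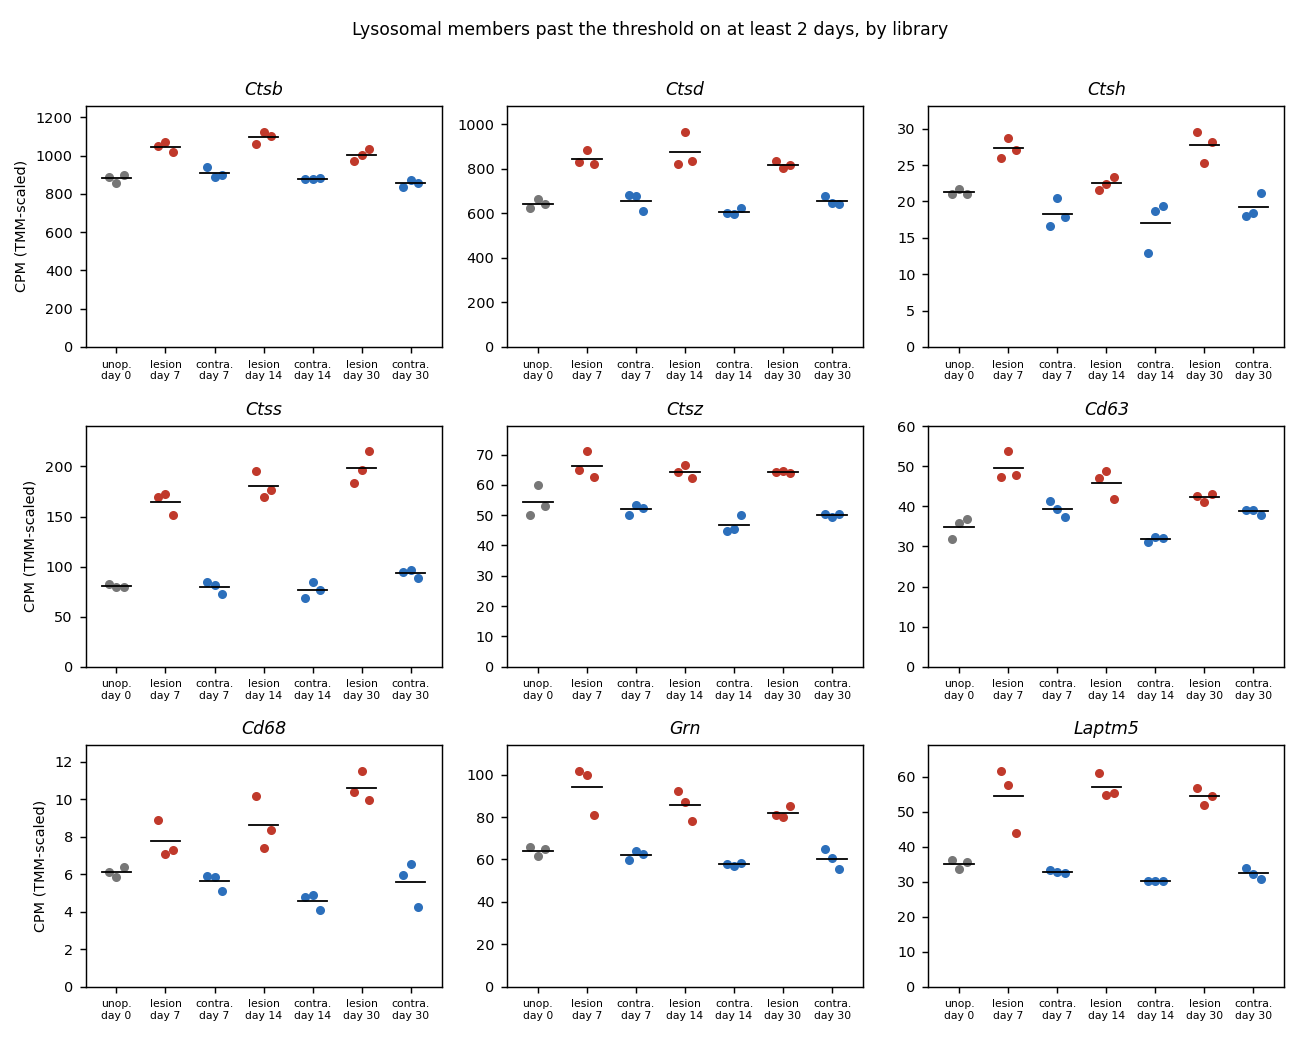
CPM in each of the 21 libraries for the 9 members called on at least 2 days; points are libraries, horizontal lines are group means, and groups run from the unoperated pons over lesion and contralateral pons of days 7, 14 and 30. Lesion libraries of Ctss lie between 152 and 215 CPM, and all other libraries lie under 100 CPM.

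Among the membrane proteins 2, 3 and 2 of 7 rose at days 7, 14 and 30. Laptm5 encodes a lysosomal membrane protein of hematopoietic cells that dampens receptor signalling in lymphocytes. It had 61.6, 57.6 and 44.0 CPM in lesion libraries at day 7, against 33.3, 32.8 and 32.6 CPM in contralateral ones. The values were 61.1, 54.8 and 55.4 CPM in lesion libraries, against 30.3, 30.2 and 30.1 CPM in contralateral libraries at day 14, and 57.0, 51.8 and 54.5 CPM in lesion libraries, against 34.1, 32.3 and 30.8 CPM in contralateral libraries at day 30. All lesion libraries were above all contralateral and unoperated ones (36.2, 33.7 and 35.7 CPM), with folds of 1.65, 1.89 and 1.68 (log2 0.72 ± 0.08, adjusted p = 2.36e-06; 0.92 ± 0.08, 3.43e-08; 0.75 ± 0.08, 3.5e-06). The lowest lesion value, 44.0 CPM, belonged to the day 7 library with high choroid plexus markers, and without it the log2 difference of that day was 0.85.

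Cd68 encodes macrosialin, a heavily glycosylated protein of macrophage endosomes and lysosomes. Lesion values were 8.89, 7.07 and 7.28 CPM at day 7, against 5.90, 5.83 and 5.11 CPM contralaterally. They were 10.2, 7.41 and 8.36 CPM in lesion libraries at day 14, against 4.80, 4.88 and 4.07 CPM in contralateral libraries, and 10.4, 11.5 and 9.96 CPM in lesion libraries at day 30, against 5.97, 6.53 and 4.23 CPM in contralateral libraries. The sides were apart on each day, but the gap at day 7 did not pass the test (log2 0.46 ± 0.15, adjusted p = 0.16), whereas those of days 14 and 30 did (0.91 ± 0.14, 0.000185; 0.94 ± 0.14, 0.000184). The lesion effect itself was not called different between days 30 and 7 (difference 0.48 ± 0.20, adjusted p = 0.999).

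Cd63 encodes a tetraspanin of late endosomes and lysosomes found in many cell types. It had 47.3, 53.7 and 47.7 CPM in lesion libraries at day 7, against 41.2, 39.3 and 37.3 CPM in contralateral ones. At day 14 these were 47.0, 48.8 and 41.9 CPM in lesion libraries, against 31.1, 32.4 and 32.2 CPM in contralateral libraries, and at day 30 42.5, 41.2 and 43.2 CPM in lesion libraries, against 39.2, 39.2 and 37.8 CPM in contralateral libraries. Here the sides drew close at day 30, still without overlap (log2 0.34 ± 0.07, adjusted p = 0.00548; 0.53 ± 0.07, 1.45e-05; 0.13 ± 0.07, 0.727). The day 7 adjusted p became 0.0669 without day 7 lesion replicate 2 and 0.0588 without day 7 contralateral replicate 3. The change of the lesion effect of Cd63, day 30 minus day 14, was -0.40 ± 0.10, adjusted p = 0.124, which was 0.028 with replicate number as a block, 0.0395 without day 14 lesion replicate 1, and 0.377 without lesion replicate 2 of that day. Lamp1 and Lamp2, the major glycoproteins of the lysosomal membrane, the calcium channel gene Mcoln1 and the Batten disease gene Cln3 passed no test between the sides. Lamp1 averaged 683 ± 41.8 CPM in lesion and 642 ± 15.8 CPM in contralateral libraries at day 14 (log2 0.09 ± 0.06, adjusted p = 0.425; SD, n = 3 each).

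Grn encodes progranulin, a secreted and lysosomal protein whose loss causes a lysosomal storage disease of neurons. It had 102, 99.8 and 81.1 CPM in lesion libraries at day 7, against 59.8, 64.1 and 62.8 CPM in contralateral ones. Day 14 gave 92.1, 87.1 and 77.9 CPM in lesion libraries, against 57.8, 56.9 and 58.2 CPM in contralateral libraries, and day 30 gave 81.0, 80.1 and 85.0 CPM in lesion libraries, against 65.0, 60.6 and 55.4 CPM in contralateral libraries. Every lesion library exceeded all contralateral and unoperated ones (65.7, 61.4 and 65.0 CPM), and the level was 1.51, 1.49 and 1.36 times the contralateral one at days 7, 14 and 30 (log2 0.60 ± 0.07, adjusted p = 7.05e-06; 0.57 ± 0.07, 1.02e-05; 0.44 ± 0.07, 0.000844). Without lesion replicate 3 of day 7, the library with choroid plexus markers, the log2 difference of Grn at day 7 was 0.69. Exons of Grn overlap Fam171a2 on the other strand. Tfeb, the regulator of lysosomal genes, passed no test between the sides, with 25.4 ± 3.50 CPM in lesion and 22.3 ± 0.732 CPM in contralateral libraries at day 14 (log2 0.19 ± 0.13, adjusted p = 0.454).

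Glycosidases and lipid handling genes, most of them housekeeping enzymes whose loss causes storage diseases, held 3 of the 4 members called on a single day. Man2b1, the lysosomal alpha-mannosidase, rose at day 7, with 63.5 ± 0.521 CPM in lesion and 50.6 ± 3.81 CPM in contralateral libraries (SD, n = 3 each; log2 0.33 ± 0.07, adjusted p = 0.00393, and 0.0541 without day 7 contralateral replicate 2). At day 14 its log2 difference of 0.21 ± 0.07 had an adjusted p of 0.0668, which was 0.0286 without lesion replicate 2 and 0.0333 with the replicate block. Hexa, the alpha subunit of beta-hexosaminidase, rose at day 14, with 68.0 ± 9.61 CPM in lesion and 55.5 ± 0.93 CPM in contralateral libraries (log2 0.29 ± 0.08, adjusted p = 0.0483). Lesion replicate 2 of that day was highest at 79.1 CPM, and without it the difference was 0.17 and the adjusted p 0.408. The adjusted p of Hexa was 0.139, 0.15 and 0.106 without contralateral replicates 1, 2 and 3 of day 14. With all libraries it was 0.0606 in limma-voom and 0.0555 in limma on the deposited log2 matrix, and with only the groups compared 0.129. Npc2, a carrier of cholesterol in the lysosomal lumen, rose at day 14, with 177 ± 12.9 CPM in lesion and 142 ± 3.65 CPM in contralateral libraries (log2 0.32 ± 0.07, adjusted p = 0.00374).

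The 22 members called on no day had log2 differences from -0.08 (Ppt1) to 0.21 (Gusb) at day 7, from -0.15 (Tpp1) to 0.19 (Tfeb) at day 14 and from -0.18 (Ctsk) to 0.21 (Lamp2) at day 30. The smallest adjusted p among these was 0.101. Those with the highest CPM were Psap, Lamp1, Gaa, Lgmn and Ctsl. Psap, the precursor of the saposins that activate sphingolipid hydrolases, had 2174 ± 20.5 CPM in lesion and 2039 ± 73.6 CPM in contralateral libraries at day 7 (SD, n = 3 each; log2 0.09 ± 0.05, adjusted p = 0.771). Gaa, the acid alpha-glucosidase that degrades glycogen, had 513 ± 9.43 CPM in lesion and 520.2 ± 53.0 CPM in contralateral libraries at day 14 (log2 -0.02 ± 0.06, adjusted p = 0.905). Lgmn, the asparaginyl endopeptidase that processes cathepsins, had 279.5 ± 8.89 CPM in lesion and 261 ± 10.2 CPM in contralateral libraries at day 14 (log2 0.10 ± 0.05, adjusted p = 0.286), and Ctsl, a widely expressed cysteine protease, had 166 ± 19.1 CPM in lesion and 152 ± 4.55 CPM in contralateral libraries (log2 0.13 ± 0.07, adjusted p = 0.334).

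No change of the lesion effect between days was called for any member in edgeR's test. Over all genes, 0%, 0.0807% and 0.0269% were called for day 14 minus day 7, day 30 minus day 14 and day 30 minus day 7. At an unadjusted p under 0.05 the effect of 3 members was larger at day 14 than at day 7, and that of 4 was smaller at day 30 than at day 14. One was larger and 1 smaller at day 30 than at day 7. In limma-voom 0 members were called in each of these differences, and in DESeq2 0 among those for which it gave an adjusted p, which it did not for Cd63 in day 30 minus day 14. The smallest adjusted p was that of Cd63, given above, and Ctsf, a cysteine protease, followed with -0.25 ± 0.09, adjusted p = 0.193 for day 30 minus day 14 (0.0398 without day 14 lesion replicate 1).

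Because the microglial and pan-myeloid markers also rose on the lesion side, each of the 9 members called on at least 2 days was set against the summed CPM of the 9 homeostatic microglia markers in the same library. Ctss kept a higher ratio on the lesion side on each day, by 0.52, 0.693 and 0.728 on the log2 scale at days 7, 14 and 30, without overlap of the 3 lesion and 3 contralateral libraries. With 3 against 3 libraries a two-sided exact permutation test gives no p below 0.1, and all 3 differences of Ctss had that p. Laptm5 differed by 0.186, 0.368 and 0.393, without overlap at days 14 and 30. Cd68 differed by -0.0656 at day 7, 0.36 at day 14 and 0.594 at day 30, and its sides were also apart at days 14 and 30. Against the 7 pan-myeloid markers Cd68 differed by -0.252 at day 7, with the lesion libraries below the contralateral ones, and by 0.226 and 0.315 at days 14 and 30, where the sides overlapped.

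For the other members the ratio was close to even or lower on the lesion side. A lower ratio means only that a member rose less than the marker sum did. It follows from the differences already given and is not a level per microglial cell, since other cells can hold these transcripts too. Grn differed by 0.0656, 0.0205 and 0.0884 at days 7, 14 and 30, with overlap each day, and by -0.121, -0.114 and -0.191 against the 7 pan-myeloid markers. Against the latter the sides overlapped at days 7 and 14, and at day 30 the lesion libraries lay below the contralateral ones. Ctsh differed by 0.0539, -0.122 and 0.174, with overlap each day, and by -0.132, -0.257 and -0.105 against the pan-myeloid markers. Ctsb had a lower ratio on the lesion side throughout, with differences of -0.321, -0.233 and -0.13, and its sides overlapped at days 14 and 30. Against the pan-myeloid markers the differences of Ctsb were -0.507, -0.367 and -0.409, without overlap on any day. The ratios of Ctsd, Ctsz and Cd63 differed by between -0.23 (Cd63, day 30) and 0.00277 (Ctsz, day 30). Lesion libraries lay below the contralateral ones for Ctsd at day 7 (-0.161) and for Cd63 at days 7 (-0.19) and 30, and otherwise the sides overlapped. Against the pan-myeloid markers these 3 members differed by between -0.51 (Cd63, day 30) and -0.158 (Ctsd, day 14), and for each of them the lesion libraries lay below the contralateral ones at days 7 and 30 and overlapped them at day 14. Against the pan-myeloid markers Ctss still had the higher ratio on the lesion side, by 0.334, 0.559 and 0.449, and Laptm5 by 0.233 and 0.114 at days 14 and 30. The share of the members' rise that goes with the number of microglia was not tested.

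**Figure D3:**
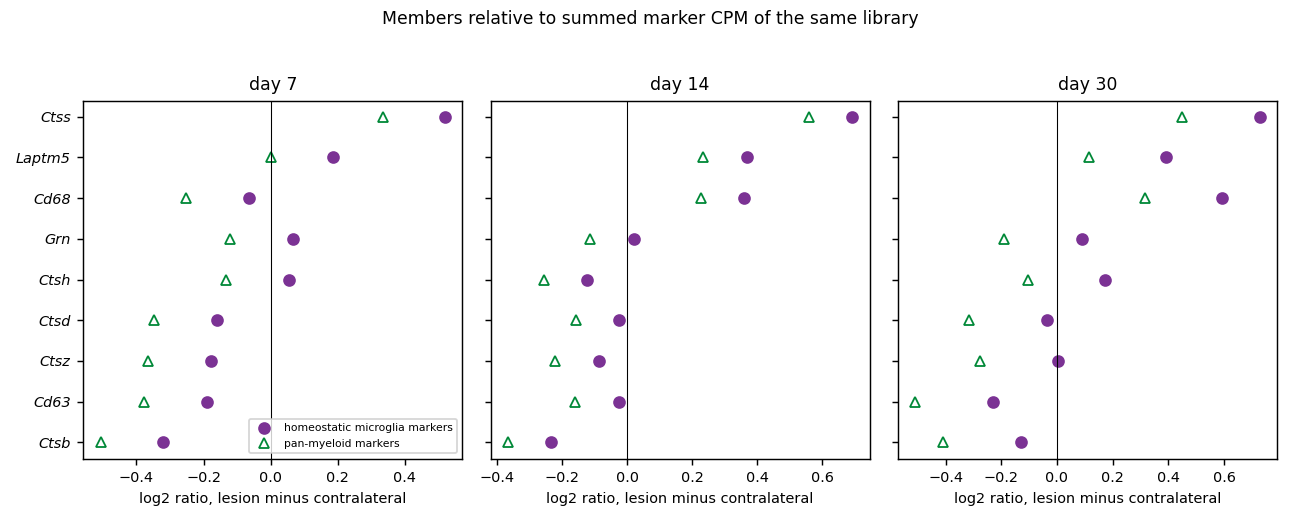
Difference between lesion and contralateral pons in the log2 ratio of a member's CPM to the summed CPM of 9 homeostatic microglia markers (filled circles) or 7 pan-myeloid markers (open triangles), as means of 3 libraries a side. Ctss lies to the right of 0 with both marker sums on each day, and Ctsb lies to the left of 0 with both.

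Against the unoperated pons, 12 members rose and 0 fell in the lesion pons at day 7 (34.3%, against 12.5% of all genes). Of all genes 8.14% were higher and 4.32% lower. In edgeR's test 1 member had an unadjusted p under 0.05 for a lower level (Npc1), and 0 fell in DESeq2 or limma-voom. Without lesion replicate 3 of day 7, Ctsc, Ctsh and Psap lost their calls at day 7 (adjusted p = 0.121, 0.0558 and 0.0945 in edgeR's test). Psap lost its call without any other library compared too (0.0812 to 0.118), without the filter (0.13) and with only the groups compared (0.142). Ctsh also lost its call without unoperated replicate 1 (0.0563) or 3 (0.0623) or lesion replicate 2 (0.0916). Ctsc also lost its call without unoperated replicate 3 (0.0539). At day 14, 10 rose and 3 fell (37.1%, against 16.8% of all genes, 9.78% higher and 7.03% lower), and at day 30, 13 rose and 2 fell (42.9%, against 22.4%, 12.7% higher and 9.69% lower). In the contralateral pons 2 rose and 1 fell at day 7 (8.57%, against 10.5% of all genes, 6.84% higher and 3.66% lower). At day 14, 2 rose and 7 fell there (25.7%, against 15.8%, 9.09% higher and 6.73% lower), and at day 30, 3 rose and 2 fell (14.3%, against 16.1%, 9.32% higher and 6.81% lower). The contralateral counts of days 7 and 30 were under the share called over all genes. Without any 1 library these contralateral counts fell to 1 to 2 at day 7 and 4 to 6 at day 14, and were 3 to 5 at day 30. All genes called then numbered 1567 to 2156, 2246 to 3860 and 2469 to 3078, against 2341, 3527 and 3597 with all libraries. Day 7 had 1 member without unoperated replicate 1 or contralateral replicate 2 or 3. Day 14 had 4 without unoperated replicate 2 or contralateral replicate 1, and 5 without contralateral replicate 2. Day 30 had 3 without contralateral replicate 2 or 3. These 6 comparisons share the 3 unoperated libraries, 2 of which carry an index and lane number that an operated library carries too, and differ in age from them. Other values moved with the same comparisons. Of 6 oligodendrocyte genes 4, 4 and 3 fell in the lesion pons at days 7, 14 and 30 (medians -0.21, -0.23 and -0.24 on the log2 scale), and 2, 4 and 3 in the contralateral pons. Of 6 endothelial and pericyte genes 3, 3 and 4 fell on either side on these days, with medians of -0.38, -0.36 and -0.43 in the lesion pons. The 6 neuronal genes summed to 6970.0 to 7050.0 CPM in the lesion pons of day 7 and 5320.0 to 5500.0 CPM in the unoperated pons, and 3 of 6 rose in the lesion pons on each day. Mitochondrial genes took 5.84% to 7.29% of the counts in the operated libraries of day 30 and 2.81% to 4.76% in those of days 7 and 14, against 3.05% to 3.6% in the unoperated ones. Their part in the members' changes was not tested. On the lesion side Ctss stood at 1.03, 1.17 and 1.30 on the log2 scale, Laptm5 at 0.63, 0.70 and 0.63 and Grn at 0.55, 0.42 and 0.36 at days 7, 14 and 30. The largest of these adjusted p values was 0.00075 for Grn at day 30.

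Lamp2, which encodes a glycoprotein of the lysosomal membrane with a role in autophagy, was higher on both sides. It had 91.3, 86.9 and 96.0 CPM in the unoperated pons. Lesion libraries had 130.2, 125 and 142 CPM at day 7, 136, 123 and 130.2 CPM at day 14 and 145, 142 and 152 CPM at day 30. Contralateral libraries had 125, 128 and 119 CPM, 119, 131 and 127 CPM and 129, 124 and 127 CPM on these days. All 18 operated libraries exceeded the unoperated ones, by 0.54 ± 0.06, 0.51 ± 0.06 and 0.68 ± 0.06 on the log2 scale in the lesion pons (adjusted p = 2.37e-07, 5.27e-07 and 3.54e-09) and by 0.44 ± 0.06, 0.46 ± 0.06 and 0.47 ± 0.06 in the contralateral pons (6.23e-06, 2.37e-06 and 1.35e-06). The operation and the age cannot be told apart here, nor can a sequencing run, which is not given in the sources used here. The lane number was equal to that of the unoperated libraries at day 7 and differed at days 14 and 30. Of the 3 unoperated libraries, 2 carry an index that a day 7 library of the same lane number carries too. The equal number thus does not show that days 0 and 7 were sequenced together.

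Asah1, the acid ceramidase, and Ctso, a little-studied cysteine protease, also rose on both sides at day 30. Asah1 had 76.3 ± 3.16 CPM in the lesion pons (log2 0.27 ± 0.05, adjusted p = 0.000313) and 73.4 ± 1.41 CPM in the contralateral pons (0.22 ± 0.05, adjusted p = 0.00397), against 63.1 ± 1.61 CPM in the unoperated pons (SD, n = 3 each). The smaller contralateral differences of Asah1 were 0.16 ± 0.05, adjusted p = 0.0456 at day 7 and 0.17 ± 0.05, adjusted p = 0.0274 at day 14. The day 7 adjusted p lay between 0.0675 and 0.149 without any 1 of the 6 libraries compared. The day 14 one became 0.0823 without unoperated replicate 1, 0.0527 without unoperated replicate 2, 0.0636 without day 14 contralateral replicate 1 and 0.101 without day 14 contralateral replicate 3. Ctso had 57.0 ± 4.0 CPM in the lesion pons (log2 0.50 ± 0.07, adjusted p = 1.1e-05) and 53.1 ± 0.465 CPM in the contralateral pons (0.40 ± 0.07, adjusted p = 0.000296) at day 30, against 40.3 ± 4.41 CPM in the unoperated pons.

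**Figure D4:**
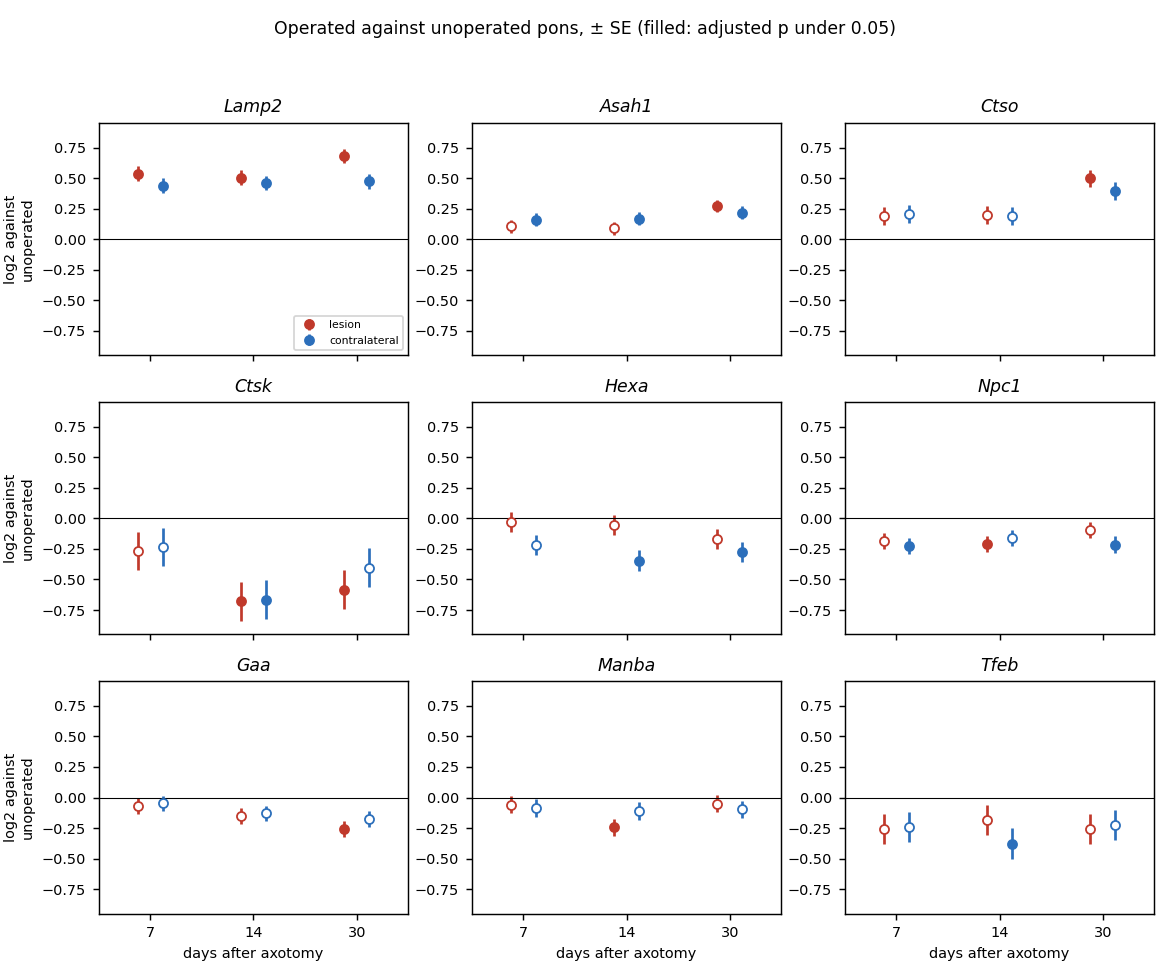
Log2 difference between operated and unoperated pons, with 1 standard error, for 9 members at days 7, 14 and 30; red is the lesion and blue the contralateral side, and filled points have an adjusted p under 0.05. Lamp2 is filled on both sides on all days, between 0.44 and 0.68, and Ctsk is lowest, at -0.68 in the lesion pons at day 14.

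Ctsk had the largest falls from the unoperated pons. It had 5.31 ± 1.01 CPM in the lesion and 5.34 ± 1.01 CPM in the contralateral pons at day 14, against 8.46 ± 0.552 CPM in the unoperated pons (SD, n = 3 each; log2 -0.68 ± 0.16, adjusted p = 0.00307, and -0.67 ± 0.16, adjusted p = 0.00446). In the lesion pons at day 30 it fell too (-0.58 ± 0.16, adjusted p = 0.00798, and 0.0607 without day 30 lesion replicate 3). Hexa fell in the contralateral pons, to 55.5 ± 0.93 CPM at day 14 and 58.3 ± 5.83 CPM at day 30, against 70.5 ± 5.39 CPM in the unoperated pons (log2 -0.35 ± 0.08, adjusted p = 0.00496, and -0.28 ± 0.08, adjusted p = 0.0238). The day 30 adjusted p of Hexa became 0.119 without unoperated replicate 2, 0.0845 without day 30 contralateral replicate 2 and 0.178 without day 30 contralateral replicate 3. Gaa fell in the lesion pons at day 30, to 476 ± 12.5 CPM against 569.5 ± 23.2 CPM (log2 -0.26 ± 0.06, adjusted p = 0.00402), a change that leaving out any 1 library did not end.

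The other falls each lost their call when single libraries were left out. Npc1, the membrane partner of NPC2 in cholesterol export, had 106 ± 6.94 CPM in the contralateral pons at day 7, against 124 ± 13.1 CPM in the unoperated pons (SD, n = 3 each). It fell in the contralateral pons at day 7 (log2 -0.23 ± 0.07, adjusted p = 0.0253) and day 30 (-0.21 ± 0.07, adjusted p = 0.0262) and in the lesion pons at day 14 (-0.21 ± 0.07, adjusted p = 0.0257). Without unoperated replicate 1 or 3 or contralateral replicate 2 or 3, the adjusted p of Npc1 lay between 0.108 and 0.142 at day 7 and between 0.0923 and 0.141 at day 30. In the lesion pons at day 14 it lay between 0.0663 and 0.141 without unoperated replicate 1 or 3 or lesion replicate 2 or 3. Manba, the lysosomal beta-mannosidase, fell in the lesion pons at day 14 (log2 -0.24 ± 0.07, adjusted p = 0.0172), and its adjusted p became 0.108 without unoperated replicate 1, 0.0565 without unoperated replicate 3 and 0.0523 without day 14 lesion replicate 1. In the contralateral pons at day 14, Ctsz (-0.21 ± 0.06, adjusted p = 0.0239), Npc2 (-0.21 ± 0.06, adjusted p = 0.0249) and Ctsh (-0.32 ± 0.11, adjusted p = 0.0374) fell. For Ctsz the adjusted p became 0.227 without unoperated replicate 2, 0.106 without day 14 contralateral replicate 1 and 0.103 without day 14 contralateral replicate 2, with a log2 difference of -0.13 without the first of these. For Npc2 it became 0.153 without unoperated replicate 2, 0.101 without unoperated replicate 3, 0.0909 without day 14 contralateral replicate 1 and 0.0749 without day 14 contralateral replicate 2. For Ctsh it became 0.0544 without unoperated replicate 1, 0.123 without unoperated replicate 2, 0.0792 without unoperated replicate 3 and 0.293 without day 14 contralateral replicate 1, with a log2 difference of -0.16 without the last of these. Cd68 (-0.42 ± 0.14, adjusted p = 0.0468) and Tfeb (-0.38 ± 0.13, adjusted p = 0.0434) were the other 2 of the 7 that fell there. The adjusted p of Cd68 lay between 0.0717 and 0.208 without any 1 of the 6 libraries compared, and that of Tfeb between 0.0908 and 0.199 without any 1 but unoperated replicate 1.

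Other lysosomal genes were looked up by lists of their roles. Of 29 tested hydrolases and activators outside the 35 members, 2, 4 and 1 rose at days 7, 14 and 30 and 0 fell, with medians of 0.05, 0.09 and 0.09 on the log2 scale. Those called were 6.9%, 13.8% and 3.45% of the list, against 1.65%, 3.88% and 1.16% of all tested genes. At an unadjusted p under 0.05, in DESeq2 and in limma-voom 0 of the 29 fell too. Scpep1, a serine carboxypeptidase, rose at days 7 and 14 (0.51 ± 0.09, adjusted p = 0.000493; 0.57 ± 0.09, 8.45e-05). The lysosomal phospholipase gene Pla2g15 rose at day 14 (0.40 ± 0.09, adjusted p = 0.00618).

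Genes for the proton pump, for the delivery of enzymes and for the control of lysosomal transcription had no member called between the sides in edgeR's test. Since 1.65%, 3.88% and 1.16% of all tested genes were called at days 7, 14 and 30, a count of 0 does not set such short lists apart. Of 18 tested subunits and accessory proteins of the vacuolar ATPase, which acidifies the lysosome, 0 were called between the sides on any day. At an unadjusted p under 0.05 they were 1 higher at day 7, 3 higher and 1 lower at day 14 and 1 higher and 1 lower at day 30, and DESeq2 called 1 lower at day 14 and limma-voom 0. Their medians were 0.02, 0.05 and -0.05, and the smallest adjusted p was that of Atp6v1a, a catalytic subunit, at day 14 (-0.20 ± 0.06, adjusted p = 0.084), followed by Atp6v0b (0.21 ± 0.07, adjusted p = 0.101). Of 12 genes for sorting enzymes to the lysosome, such as the mannose 6-phosphate receptors, 0 were called on any day by edgeR, DESeq2 or limma-voom, and at an unadjusted p under 0.05 there were 1 higher at day 7, 4 lower at day 14 and 0 at day 30. Sort1, a sorting receptor that binds progranulin, had a log2 difference of -0.21 ± 0.07, adjusted p = 0.112 at day 14, and Gnptab, which helps to make the mannose 6-phosphate tag, one of -0.19 ± 0.07, adjusted p = 0.137. Of 11 regulators, among them Mitf, Tfe3 and genes of the mTORC1 pathway, 0 were called by the 3 tools, with 0 at day 7, 3 lower at day 14 and 1 higher and 1 lower at day 30 at an unadjusted p under 0.05. Zkscan3, reported as a repressor of lysosomal genes, had -0.30 ± 0.10, adjusted p = 0.107 at day 14, and Mtor -0.19 ± 0.08, adjusted p = 0.16.

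Single genes of the remaining lists rose. Of 24 other membrane proteins and transporters 1 rose on each day, which is 4.17% of the list. Of all tested genes 1.65%, 3.88% and 1.16% were called at days 7, 14 and 30, so the list was near that share at day 14. Slc11a1, an iron and manganese transporter of phagosomes, rose at day 14 (0.63 ± 0.18, adjusted p = 0.0445) and at day 30 (1.13 ± 0.18, adjusted p = 0.00027), with 5.41 ± 0.7 CPM in lesion and 2.48 ± 0.167 CPM in contralateral libraries (SD, n = 3 each). The call of Slc11a1 at day 14 was not made by limma-voom. Mcoln2, a channel of the mucolipin family, had 20 counts in the 3 lesion libraries of day 7 and 2 in the contralateral ones (adjusted p = 0.019), and DESeq2 did not call it. Of 4 cystatins and stefins, the inhibitors of cysteine cathepsins, Cst7 rose on all 3 days (2.91 ± 0.73, adjusted p = 0.0318; 3.48 ± 0.62, 0.000705; 4.27 ± 0.50, 5.93e-06), although limma-voom did not call it at day 7. Cst7 encodes cystatin F, an inhibitor that acts inside the lysosomes of immune cells. It had 32, 68 and 192 counts in the lesion libraries of days 7, 14 and 30, against 4, 5 and 8 in the contralateral ones. Cst3, the abundant secreted cystatin C, rose at day 14 (0.29 ± 0.08, adjusted p = 0.0375).

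**Figure D5:**
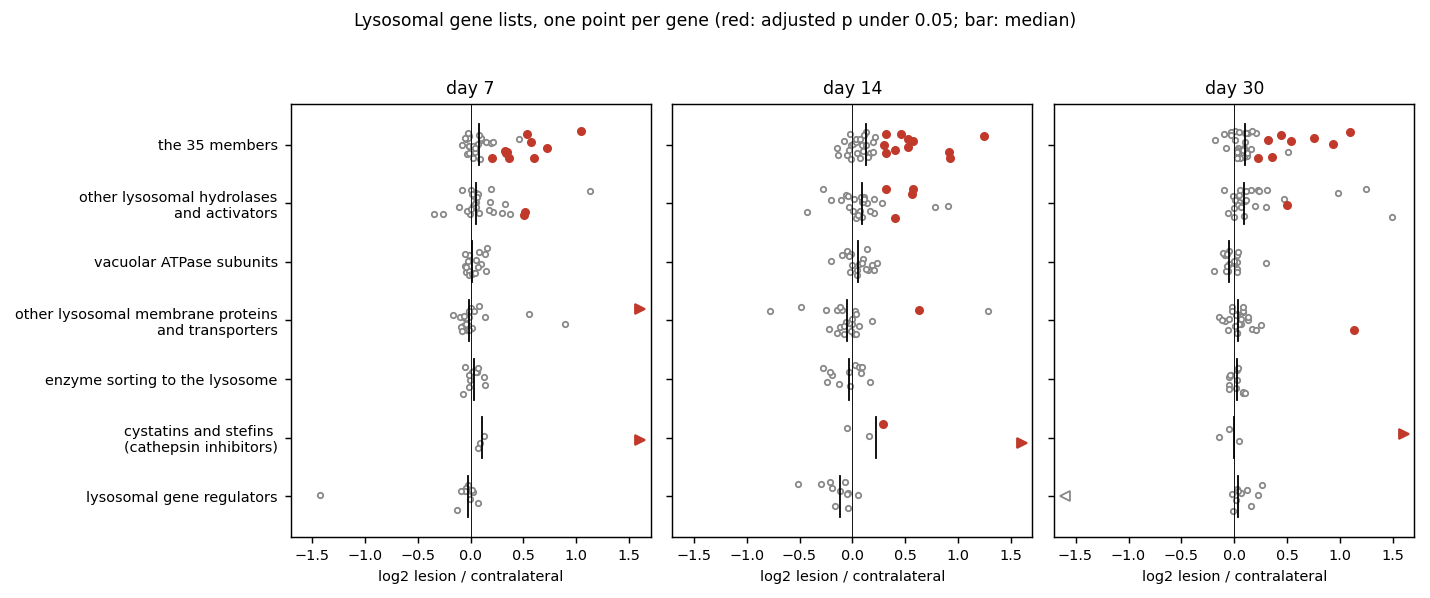
Log2 difference between lesion and contralateral pons for the 35 members and for 6 lists of other lysosomal genes at days 7, 14 and 30, with 1 point a gene, red points for an adjusted p under 0.05 and a bar at the median; arrows at the edges are genes beyond the axis. The arrows are Mcoln2 and Cst7 at day 7, Cst7 at days 14 and 30, and, at the left, Tfec, which had 0 counts in the lesion and 5 in the contralateral libraries of day 30.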

How the data were processed

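The authors aligned 50-base single reads of stranded libraries with Rsubread to the GENCODE mouse assembly M7 (GRCm38.p4) after CASAVA 1.8.2 and featureCounts gave reads per gene symbol, per the labels and the submitters' processing notes. The deposited counts are raw. The deposited matrix holds log2 values that the authors made after removing genes without a count and those at or under the 32nd percentile of summed counts. The same filter (summed count above 29) left 22294 of 32815 genes with a count, and log2 CPM recomputed with TMM factors differed from the deposited values by at most 5e-11 over the 20295 symbols matched, all 35 members included. Day 30 count columns carry the opposite side letter and were assigned as the sample descriptions state, on which the direction of day 30 rests.

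Counts were tested with edgeR 4.0.16 in R 4.3.3 (TMM, robust quasi-likelihood F-test, 7 groups and 21 libraries in 1 model, two-sided), checked on simulated data, with the Benjamini-Hochberg adjustment over all genes tested. Log2 differences carry their standard error. Alternatives were DESeq2 1.42.0, limma 3.58.1 (voom, and the deposited matrix), other size factors, filters, sample sets and thresholds, a replicate block, and each replicate left out. Lesion and contralateral libraries of 1 number deviated together at days 7 and 30 (r of 0.167 to 0.273, and of 0.194 to 0.215, across genes) but not throughout at day 14 (-0.00345 to 0.269). For unequal numbers r was -0.196 to -0.0116 at day 7, -0.238 to 0.102 at day 14 and -0.155 to -0.0417 at day 30. The labels do not say that equal numbers are 1 animal. The main test takes the libraries as unpaired, and its p-values rest on the spread between them. Members, lists and tests were chosen with earlier results of these data known. Members called on at least 2 days have every value printed, those called on 1 day means, the others ranges with the 5 of highest CPM. Of other lists, the 2 to 4 genes of smallest adjusted p were named, except some that are not reported here, and against the unoperated pons up to 5 members a direction, with 2 more of the day 14 contralateral falls named after their values were seen. Positions are from GENCODE M21 (GRCm38), where exons of 3 members overlap another gene on their own strand and those of 10 members 1 on the opposite strand, and exon lengths from the count table.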

Additional observations from a re-analysis of the deposited data

How the results depend on the processing

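Of the 29 calls between the sides, 21 held under all 14 alternatives run for each (tools, filters, size factors, sample sets, replicate block, and each replicate left out), namely Ctss, Laptm5, Grn, Ctsd and Ctsz on all days, Cd68 at days 14 and 30, Ctsh at day 7, and Ctsb, Cd63 and Npc2 at day 14. Over 96 single-gene results, 1213 of 1344 alternative values were on the same side of the threshold, 124 lost it, 7 gained it and 0 reversed. With a further limit that the design text names, a log2 difference of at least 1.7 in size, the count of members called was 0 in all 9 comparisons between groups. The replicate block gave 9, 12 and 8 members between the sides at days 7, 14 and 30, and lost the call of Ctsc at day 7. Over all 22294 genes tested it called 469, 1911 and 375, against 368, 866 and 259 in the main test. The block also called 1 member for the lesion effect of day 30 minus day 14 (1 without the filter too) and 8 for the contralateral pons of day 30 against the unoperated pons, as did DESeq2 (8) and no filter (8). All genes called for day 30 minus day 14 were 744 with the block and 331 of 32815 without the filter, against 18 in the main test. For the contralateral pons of day 30 they were 3949 with the block, 3739 in DESeq2 and 3428 without the filter, against 3597. Fitting only the groups compared gave 1 member at day 7 and 5 at day 14 for the contralateral against the unoperated pons. Of all genes it called 1584 and 2781 there, against 2341 and 3527 in the main test. Without 1 replicate, the members called numbered 7 to 9, 9 to 14 and 6 to 8 between the sides at days 7, 14 and 30. All genes called then numbered 272 to 335, 432 to 1983 and 158 to 218. Contralateral counts against the unoperated pons were 1 to 2, 4 to 6 and 3 to 5 at these days, and the lesion effect of day 30 minus day 14 had 0 to 2. Of all genes 1567 to 2156, 2246 to 3860 and 2469 to 3078 were called in the contralateral comparisons. For day 30 minus day 14 they were 5 to 938, and the fit with 2 members, without day 14 lesion replicate 1, called the 938. The cause of these shifts was not tested. Ratios to the marker sum reversed with pan-myeloid markers for Grn (-0.121, -0.114 and -0.191 at days 7, 14 and 30), Ctsh (-0.132 at day 7, -0.105 at day 30), Ctsz (-0.276 at day 30) and Laptm5 (-7.84e-05 at day 7). Without 1 replicate, ratios that changed sign ran from -0.137 to 0.0799 (Ctsd, day 14), -0.0454 to 0.133 (Ctsh, day 7), -0.304 to 0.0355 (Ctsh, day 14), -0.166 to 0.0124 (Ctsz, day 14), -0.0515 to 0.04 (Ctsz, day 30), -0.109 to 0.0332 (Cd63, day 14), -0.123 to 0.0265 (Cd68, day 7) and -0.0478 to 0.0797 (Grn, day 14). The standard errors between the sides were widest for Ctsk, Cd68 and Ctsc, and the part of depth in this was not tested.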
